A study of Homo sapiens with 28 samples.

Results

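The genes described here encode the nuclear pore complex. They were chosen by a rule on the gene symbol, set with earlier results of these data known. The rule took every row whose symbol begins with NUP followed by a digit. It also took AAAS, GLE1, NDC1, POM121, RAE1, RANBP2, SEC13, SEH1L and TPR. That rule found 32 of the 16482 rows of the table of all reads and 30 of the 13029 rows of the table of T>C reads. POM121C, also named by the rule, was not analysed here. Of the 32 genes, 30 have a known place in the pore: 8 in the outer ring, 5 in the inner ring, 3 in the membrane, 4 in the central channel, 3 in the nuclear basket and 7 on the cytoplasmic face. The other 2 rows, NUP210L and NUP62CL, met the rule by name and are present only in the table of all reads.

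The RNA came from MDA-MB-453, an established breast cancer cell line, in an experiment on transcripts after a short exposure to BET inhibitors or degraders. Cells were exposed for 3 h to DMSO (the solvent control), to the BET bromodomain inhibitors JQ1 or IBET151, or to the degraders JQ1-VHL and IBET151-VHL, in which the inhibitor is joined to a ligand of the VHL ubiquitin ligase. All 5 treatments also received 0.1 mM 4-thiouridine for the last 60 min, so that RNA made in that time can be recognised by T-to-C changes in its reads (SLAM-seq). Cells were split with digitonin into nuclear and cytoplasmic RNA, giving 28 libraries in 10 groups, with 3 libraries per group and 2 for IBET151 in each fraction. The labels give no dose. They do not say that replicates are separate cultures, so the p-values measure the spread between these libraries, which may be technical. All results hold for 1 line and 1 time. No library without 4-thiouridine was analysed here, so the T>C reads include an unknown number from sequencing error and other sources.

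The nuclear pore is the channel through which RNA and protein pass between nucleus and cytoplasm. Stacked outer and inner rings form its scaffold, membrane proteins hold it in the nuclear envelope, and proteins with phenylalanine-glycine repeats fill the channel and bind the transport receptors. The basket on the nuclear side takes part in the docking of mRNA for export, and the proteins on the cytoplasmic face help strip export factors from the mRNA as it emerges.

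Cytoplasmic libraries held 30647584 to 68475299 reads, of which 82264 to 379401 were T>C reads, and the pore genes took 63299 to 111495 and 83 to 724 of these. Nuclear libraries held 17851589 to 38658448 reads and 214725 to 1928012 T>C reads, with 53164 to 106409 and 686 to 10020 from the pore genes. Values are the authors' read counts scaled to ERCC spike-in RNA, which was added per mass of RNA, so a level here is per mass of RNA and not per cell. In bulk RNA of this kind, fewer cells of a type and less RNA per cell cannot be told apart. All 8 markers chosen for the line were present (ERBB2 at 2476 to 8981 in the cytoplasmic libraries). Of the 8, 2 fell in the cytoplasm with each degrader (12.5% of all genes with JQ1-VHL and 15.4% with IBET151-VHL). They were GATA3 and FOXA1, which encode luminal transcription factors. GATA3 fell by 1.85 and 2.08 and FOXA1 by 1.84 and 2.04 on the log2 scale (JQ1-VHL and IBET151-VHL, limma, Benjamini-Hochberg). With JQ1, 3 fell (GATA3, FOXA1 and XBP1, against 4% of all genes), and with IBET151 1 fell (GATA3, against 1.62%). The part of these changes in the results for the pore genes was not tested. Of 10 markers of other cell types, 8 had a row. The leukocyte gene PTPRC stood at or near 0, and the sum of the list was 1198 to 2559 in the DMSO cytoplasm and 1480 to 2042 with IBET151-VHL, nearly all of it COL1A1. The nuclear RNA MALAT1 stood at 15747 to 65876 in the nuclear libraries and at 1181 to 4769 in the cytoplasmic ones.

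In the cytoplasm, the question was whether a few hours of BET inhibition or degradation altered the amount of mRNA for the pore. Most pore transcripts did not pass the test. With JQ1-VHL, 4 of the 32 fell (12.5%, against 12.5% of all 12470 genes tested), and with IBET151-VHL 5 fell (15.6%, against 15.4% of all genes). With JQ1, 1 fell (3.13%, against 4% of all genes), and with IBET151 none did, against 1.62% of all genes. None rose with any compound, against 0.818% of all genes with JQ1, 0.417% with JQ1-VHL, 0.898% with IBET151 and 0.465% with IBET151-VHL. The share of pore genes that fell was therefore close to that of all genes. The median change of the pore genes was -0.06 with JQ1-VHL and -0.10 with IBET151-VHL on the log2(value + 1) scale, and that of all genes -0.17 and -0.15. The tests were limma with Benjamini-Hochberg adjustment over all genes. For IBET151, where limma called no pore gene, 3 had an unadjusted p under 0.05, and edgeR and DESeq2 each called 0. The 4 drug comparisons share the same DMSO libraries. Single libraries moved these counts: 1 fell with JQ1-VHL without JQ1-VHL replicate 1 or DMSO replicate 2, and 2 fell without JQ1-VHL replicate 3 or DMSO replicate 1. With IBET151-VHL 2 fell without IBET151-VHL replicate 1, and 3 without IBET151-VHL replicate 3 or DMSO replicate 1 or 2, and with JQ1 4 fell without DMSO replicate 3.

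**Figure D1:**
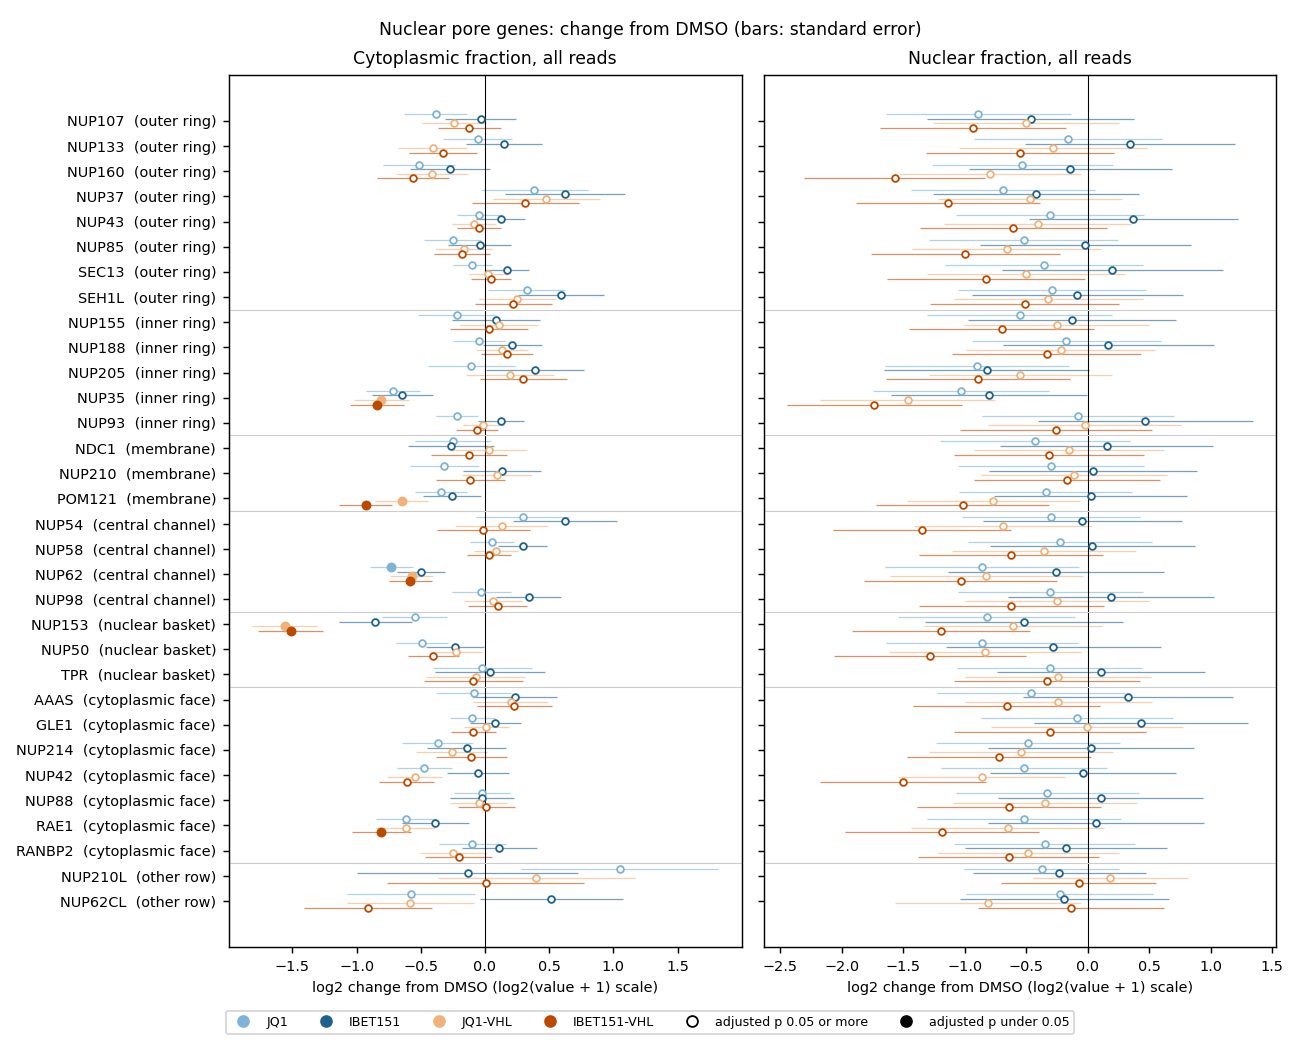
Change in all reads of each pore gene against DMSO (log2 of value + 1, horizontal axis, with the SE as a bar), for the 4 compounds, in the cytoplasm and in the nucleus, with the genes listed down the vertical axis by their place in the pore. Filled points passed an adjusted p of 0.05 (limma): in the cytoplasm NUP153, NUP35, NUP62 and POM121 fell with both degraders, and in the nucleus no point is filled.

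NUP153, which anchors the nuclear basket, had the largest fall among the pore genes with either degrader. That it fell was already known from earlier results of these data. Its cytoplasmic level in the 3 DMSO libraries was 371, 684 and 431, and in the 3 JQ1 libraries 459, 264 and 287. With IBET151 it was 265 and 263, with JQ1-VHL 148, 170 and 166, and with IBET151-VHL 161, 147 and 197. Every degrader library lay below every library of DMSO, JQ1 and IBET151, while the JQ1 and DMSO libraries overlapped. The mean fell from 495 ± 166 (SD, n = 3) in DMSO to 162 ± 11.8 (n = 3) with JQ1-VHL and to 168 ± 25.8 (n = 3) with IBET151-VHL. The log2 changes were -1.56 ± 0.25 (SE) with JQ1-VHL (limma, adjusted p = 0.000834) and -1.51 ± 0.25 with IBET151-VHL (adjusted p = 0.000626), which are 2.95-fold and 2.85-fold lower. Both calls held under each alternative run, including without any 1 library. The inhibitors gave -0.55 ± 0.25 (JQ1, adjusted p = 0.311) and -0.85 ± 0.28 (IBET151, adjusted p = 0.162) and did not pass the limma test.

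Of the inner ring, which lines the wall of the pore, NUP35 was the member that fell with both degraders. NUP35 binds the membrane and other inner ring proteins. Its level was 780, 1139 and 728 in DMSO, 590, 591 and 417 with JQ1, and 552 and 554 with IBET151. With JQ1-VHL it was 416, 523 and 554, and with IBET151-VHL 405, 533 and 520. All drug libraries lay below all DMSO libraries. The changes were -0.81 ± 0.21 with JQ1-VHL (adjusted p = 0.0208, limma) and -0.84 ± 0.21 with IBET151-VHL (adjusted p = 0.0128), and with JQ1 (-0.72 ± 0.21, adjusted p = 0.0727) and IBET151 (-0.65 ± 0.24, adjusted p = 0.232) the test was not passed. The JQ1-VHL call was lost without JQ1-VHL replicate 1 (adjusted p = 0.118) or DMSO replicate 2 (0.084), and the IBET151-VHL call without IBET151-VHL replicate 1 (0.0654) or DMSO replicate 2 (0.0556). The other inner ring genes, NUP93, NUP155, NUP188 and NUP205, stood between -0.06 and 0.30 with either degrader and did not pass.

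In the central channel, NUP62, which carries phenylalanine-glycine repeats and works in a complex with NUP54 and NUP58, fell with 3 of the 4 compounds. Its level was 3359, 3901 and 2551 in DMSO, 2074, 2108 and 1677 with JQ1, and 2280 and 2284 with IBET151. With JQ1-VHL it was 1997, 2464 and 2077, and with IBET151-VHL 2197, 2168 and 2095. The drug libraries were again all below the DMSO libraries. Relative to DMSO it fell by 0.73 ± 0.17 with JQ1 (limma, adjusted p = 0.0211), by 0.57 ± 0.17 with JQ1-VHL (adjusted p = 0.0364) and by 0.58 ± 0.17 with IBET151-VHL (adjusted p = 0.0268), the first a 1.66-fold change. IBET151 gave -0.50 ± 0.19 (adjusted p = 0.245). Each call was lost without DMSO replicate 1 or 2, the JQ1 call also without JQ1 replicate 2 or 3, the JQ1-VHL call without JQ1-VHL replicate 1 or 3, and the IBET151-VHL call without any of its 3 replicates, with adjusted p between 0.052 and 0.159. NUP54, NUP58 and NUP98 did not pass with either degrader (-0.01 to 0.13).

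POM121, a membrane protein that anchors the pore in the envelope, stood at 403, 388 and 291 in DMSO, at 345, 245 and 263 with JQ1 and at 274 and 326 with IBET151. It stood at 237, 195 and 253 with JQ1-VHL and at 206, 168 and 188 with IBET151-VHL. Both degrader groups were below all DMSO libraries, and both inhibitor groups overlapped DMSO. The change was -0.65 ± 0.20 with JQ1-VHL (adjusted p = 0.0488, limma) and -0.93 ± 0.20 with IBET151-VHL (adjusted p = 0.00468, 1.91-fold lower). The JQ1-VHL call was lost without any 1 of DMSO replicates 1 and 2 and JQ1-VHL replicates 1, 2 and 3 (adjusted p 0.0762 to 0.183), and the IBET151-VHL call held without each library. POM121 has near-identical copies in the genome, so reads may be shared with them and its level is uncertain. The other membrane genes, NDC1 and NUP210, stood at 0.03 and 0.09 with JQ1-VHL and at -0.12 and -0.11 with IBET151-VHL, and did not pass.

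On the cytoplasmic face, RAE1, a partner of NUP98 in mRNA export, was the member that passed. It stood at 6148, 5825 and 3425 in DMSO, at 3801, 3788 and 2359 with JQ1, and at 4053 and 3569 with IBET151. It stood at 2998, 3645 and 3101 with JQ1-VHL and at 3031, 3147 and 2402 with IBET151-VHL. Only the IBET151-VHL libraries lay wholly below DMSO, and DMSO replicate 3 was low. RAE1 fell by 0.81 ± 0.23 with IBET151-VHL (limma, adjusted p = 0.0265), and JQ1-VHL gave -0.62 ± 0.23 (adjusted p = 0.106). The call was lost without DMSO replicate 1 or 2 or IBET151-VHL replicate 1 or 3, with adjusted p between 0.0503 and 0.125. With the replicate number as a block, which held for these groups, RAE1 passed also with JQ1 (-0.62, adjusted p = 0.0298) and JQ1-VHL (adjusted p = 0.0154), and NUP35 with JQ1 (adjusted p = 0.0385), for 3, 5 and 5 pore genes that fell with JQ1, JQ1-VHL and IBET151-VHL (6.38%, 16.2% and 18.5% of all genes). The rest of the cytoplasmic face, NUP42, NUP88, NUP214, RANBP2, GLE1 and AAAS, did not pass, nor did the 8 outer ring genes, whose changes lay between -0.56 and 0.48 with the degraders. RANBP2 also has near-identical copies.

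**Figure D2:**
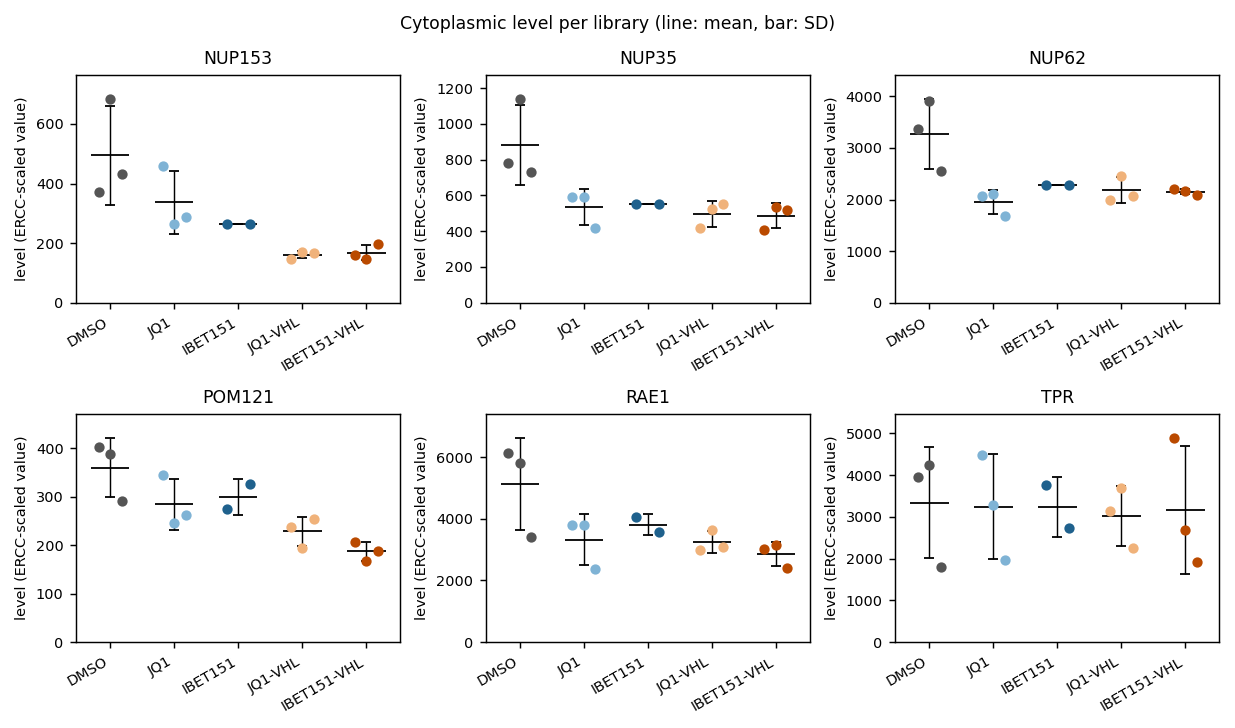
Cytoplasmic level (ERCC-scaled value per library, vertical axis) of NUP153, NUP35, NUP62, POM121, RAE1 and TPR under each treatment, 1 point per library, with a line at the mean and a bar for the SD. The NUP153 points of both degraders sit between 147 and 197, below all others, while the TPR points of all treatments overlap.

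TPR, the scaffold of the basket, ran from 1805 to 4243 in DMSO and from 1907 to 4879 with IBET151-VHL, and these ranges overlapped almost fully. Its changes of -0.07 (95% interval -0.90 to 0.75) and -0.09 (-0.92 to 0.73) with JQ1-VHL and IBET151-VHL did not pass, and the intervals are wide. NUP50, the third basket protein, which binds NUP153 and importin alpha, gave -0.22 and -0.40 and did not pass either. Some wide intervals came with a single library: DMSO replicate 1 was low for NUP37 (297, against 1562 and 843), NUP54 (243, against 954 and 629) and SEH1L (813, against 2542 and 1788).

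To show the DNA in front of the genes that fell with both degraders, the 250 bases before an annotated start are given for NUP153, NUP35, NUP62 and POM121. They are from RefSeq, build GRCh38.p14, read 5′ to 3′ on the strand of the gene. A single window is shown per gene, and other listed starts are not shown. Capitals mark matches to the searched motifs on either strand, namely CCAAT (the CCAAT box), GGGCGG (the GC box), CACGTG (the E-box), CCGGAAG (the core of ETS sites), TATAAA (the TATA box) and the palindrome of NRF1, whose 10 letters are the capitals in the NUP62 line. NUP153 lies at chr6:17706926-17707175 on the minus strand, NUP35 at chr2:183124193-183124442 on the plus strand, NUP62 at chr19:49929505-49929754 on the minus strand and POM121 at chr7:72879107-72879356 on the plus strand.
NUP153: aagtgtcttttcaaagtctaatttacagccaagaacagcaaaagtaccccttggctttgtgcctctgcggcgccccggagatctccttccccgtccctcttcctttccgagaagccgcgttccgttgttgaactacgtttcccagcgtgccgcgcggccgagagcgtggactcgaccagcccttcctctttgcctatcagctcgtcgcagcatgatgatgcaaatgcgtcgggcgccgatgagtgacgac
NUP35: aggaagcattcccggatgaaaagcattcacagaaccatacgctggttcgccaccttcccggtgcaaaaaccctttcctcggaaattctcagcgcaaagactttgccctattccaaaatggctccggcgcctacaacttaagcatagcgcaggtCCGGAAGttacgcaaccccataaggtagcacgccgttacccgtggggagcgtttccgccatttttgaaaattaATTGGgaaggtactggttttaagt
NUP62: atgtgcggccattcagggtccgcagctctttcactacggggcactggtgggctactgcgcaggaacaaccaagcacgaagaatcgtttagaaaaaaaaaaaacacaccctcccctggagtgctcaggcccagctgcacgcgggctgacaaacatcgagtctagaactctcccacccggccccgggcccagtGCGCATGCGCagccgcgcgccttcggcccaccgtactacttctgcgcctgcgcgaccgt
POM121: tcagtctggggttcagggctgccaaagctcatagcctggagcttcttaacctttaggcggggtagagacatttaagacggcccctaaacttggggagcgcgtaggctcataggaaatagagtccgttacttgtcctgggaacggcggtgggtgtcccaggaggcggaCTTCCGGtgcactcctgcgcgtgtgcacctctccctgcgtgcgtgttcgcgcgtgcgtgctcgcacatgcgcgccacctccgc
The NUP153 window held none of these letters. The NUP35 window held CCGGAAG, the core recognised by ETS factors, and CCAAT on the opposite strand. The POM121 window held CCGGAAG on the opposite strand, and the NUP62 window held the NRF1 palindrome. Counting all listed starts, POM121 also held GGGCGG. No motif was shared by all 4. Over the 30 pore genes with an entry, counting all their listed starts, CCGGAAG was found in 12 (40%), against 16.1% of the 12564 genes of the table with an entry, counted in the same way. The NRF1 palindrome was found in 3 (10%, against 2.03% of genes), CCAAT in 12 (40%, against 41.1%), GGGCGG in 15 (50%, against 69.1%), CACGTG in 2 (6.67%, against 10.4%) and TATAAA in 1 (3.33%, against 9.81%). Per promoter, over 35116 promoters of the same length, the shares were 8.52%, 1.03%, 32.0%, 42.6%, 6.34% and 10.7% in that order. The median GC content was 62.8% for the 39 pore promoters and 58% for all 35116 promoters, a set not matched to the genes of the table.

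Each degrader was compared with the inhibitor it contains, and the compounds of a kind with each other, in 4 pairs. JQ1-VHL differs from JQ1 by the attached VHL ligand. Between them 1 of the 32 pore genes differed, NUP153, which was 1.01 ± 0.25 lower on the log2 scale with JQ1-VHL (95% interval -1.55 to -0.47, limma adjusted p = 0.0335), against 4.18% of all genes that were lower and 0.0481% that were higher. That call was lost without JQ1 replicate 1 (adjusted p = 0.215) or any of JQ1-VHL replicates 1, 2 and 3 (0.155, 0.0777 and 0.0976). Between IBET151-VHL and IBET151 limma called 0 pore genes, against 7.87% of all genes that were lower and 0.0321% that were higher. There 4 had an unadjusted p under 0.05, edgeR called 0 and DESeq2 1. The nearest were POM121 at -0.68 (-1.16 to -0.19, adjusted p = 0.0986) and NUP153 at -0.66 (-1.26 to -0.056, adjusted p = 0.245). The 2 degraders, which differ in the inhibitor they carry, gave no pore gene that differed in limma (0 at an unadjusted p under 0.05, and 0 in edgeR and DESeq2), against 0.016% of all genes lower with IBET151-VHL, with differences from -0.40 to 0.15 and a median 95% interval of ± 0.53. For NUP153 the difference was 0.05 (-0.49 to 0.59). JQ1 and IBET151 also gave no call, and all 32 intervals of their difference spanned 0. In the nucleus limma called 0 pore genes in each of the 4 pairs, and all 32 intervals spanned 0. For these 5 comparisons 0 pore genes had an unadjusted p under 0.05, and edgeR and DESeq2 called 0. Of all genes, 0.506% were lower and 0.0347% higher with IBET151-VHL than with IBET151, and 0.166% lower and 0.132% higher with JQ1-VHL than with JQ1. Whether the doses were matched is not stated in the labels.

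In the nucleus no pore gene passed the limma test in all reads with any compound. At an unadjusted p under 0.05 there were 0 with JQ1, 1 with JQ1-VHL, 0 with IBET151 and 3 with IBET151-VHL, and edgeR and DESeq2 called 0. Of all 14417 genes, 0.0486%, 1.07%, 0.00694% and 3.66% fell and 0.0208%, 0.902%, 0.0902% and 0.888% rose (JQ1, JQ1-VHL, IBET151 and IBET151-VHL). The median change was -0.68 with IBET151-VHL for the pore genes and -0.71 for all genes, and -0.48 for both with JQ1-VHL. NUP35 had the smallest p with each compound: its level was 1026, 1548 and 2239 in DMSO, 368, 840 and 1340 with JQ1, and 731 and 1043 with IBET151. It was 240, 813 and 857 with JQ1-VHL and 210, 630 and 725 with IBET151-VHL, so both degrader groups lay below DMSO, with replicate 1 lowest in each group. The changes were -1.03 with JQ1, -0.80 with IBET151, -1.47 with JQ1-VHL and -1.74 ± 0.71 with IBET151-VHL (limma, adjusted p = 0.963, 1, 0.457 and 0.164). In nuclear replicate 1 of DMSO, JQ1, JQ1-VHL and IBET151-VHL, 1 read was worth 0.670 to 0.927 of a scaled unit, against 1.17 to 2.24 in the other nuclear libraries. Without those libraries 8 pore genes fell with IBET151-VHL in nuclear reads, against 19.5% of all genes, and 0 with JQ1 and JQ1-VHL, against 0.527% and 5.54%. In the cytoplasm, without replicate 1 of these 4 treatments, the counts that fell were 0 with JQ1, 1 with JQ1-VHL and 2 with IBET151-VHL, against 0.898%, 5.16% and 10.7% of all genes.

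Nuclear libraries of DMSO, JQ1, JQ1-VHL and IBET151-VHL with the same replicate number deviated together. Those of IBET151 did not in replicate 2 (r = -0.19 with DMSO). By the library numbers in the titles, IBET151 replicate 1 lies among 939 to 949, with replicate 2 of the other treatments. IBET151 replicate 2 lies among 953 to 961, with replicate 3 of the degraders. No IBET151 library lies among 927 to 937, which hold replicate 1 of the other treatments. In the comparison of IBET151 with DMSO, only DMSO had a library from there. A block on the replicate number included the IBET151 libraries and took the median of all genes with IBET151 from 0.05 to 0.33. The part of this mismatch in the counts was not tested on its own. Blocks for the ranges of library numbers gave other counts, which are given at the end. With the block, 5 pore genes fell with JQ1, 5 with JQ1-VHL and 16 with IBET151-VHL, where 9.54%, 23.4% and 43.7% of all genes fell. NUP35, NUP50 and NUP62 were among them with all 3 compounds. With the block, NUP35 fell by 1.47 ± 0.32 with JQ1-VHL (limma, adjusted p = 0.000104) and by 1.74 ± 0.32 with IBET151-VHL (adjusted p = 1.17e-06). NUP160, a scaffold protein of the outer ring, fell by 1.57 (adjusted p = 4.29e-06), NUP50 fell by 1.29 (9.21e-05), and NUP153 fell by 1.20 (0.000882), all with IBET151-VHL. The 16 came from every place in the pore. Under median-ratio scaling, which took the median of all genes with IBET151-VHL from -0.71 to 0.06, NUP35 fell by 0.96 (adjusted p = 0.00121) and NUP210 stood higher by 0.61, for 3 lower and 1 higher, against 9.5% and 5.11% of all genes.

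Whether the compounds acted differently on the 2 fractions was tested as the nuclear minus the cytoplasmic effect. No pore gene passed for any compound in limma (0 at an unadjusted p under 0.05, and 0 in edgeR and DESeq2), and of all 14458 genes at most 0.00692% did. The values ran from -1.42 to 0.35 with JQ1, -0.95 to 0.95 with JQ1-VHL, -1.21 to 0.45 with IBET151 and -1.45 to 0.77 with IBET151-VHL. The highest with JQ1-VHL was that of NUP153, 0.95 with a 95% interval of -0.55 to 2.45. Under median-ratio scaling 1 pore gene, NUP153, was called higher for JQ1-VHL, where 52 of all 14458 genes were.

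T>C reads mark transcripts made in the last hour that had reached each fraction, with an unknown number from sequencing error and other sources. In the cytoplasm, 25 of the 30 pore genes in that table had enough T>C reads to be tested, and NUP42, NUP107, NUP188, NUP210 and POM121 did not. Of the 25, 19 fell with JQ1-VHL and 22 with IBET151-VHL, against 82.8% and 88.3% of the 6300 genes tested. JQ1 lowered 5 (NUP153, NUP93, NUP214, NUP43 and RAE1) and IBET151 lowered 1 (NUP160), against 20.1% and 6.76%, and none rose with any compound, against 0.492% of genes with JQ1, 0.19% with JQ1-VHL, 0.524% with IBET151 and 0.159% with IBET151-VHL. The medians were -2.39 with JQ1-VHL and -2.52 with IBET151-VHL for the pore genes, and -2.42 and -2.90 for all genes. A gene could be tested through its DMSO libraries alone, as 7 of the 25 were (NDC1, NUP153, NUP160, NUP214, NUP35, NUP43 and NUP88), and such a gene had to stand lower with the drugs, so its call is no support. Of the other 18, 12 fell with JQ1-VHL and 15 with IBET151-VHL, against 82.6% and 87.8% of the 4723 genes that passed in the drug libraries. With JQ1, 2 of the 18 fell (NUP93 and RAE1), against 13.6%, and with IBET151 none, against 2.9%. With the T>C values scaled by the median ratio of genes instead, which took the median of all genes with JQ1-VHL from -2.42 to -0.86 and with IBET151-VHL from -2.90 to -1.23, 3 were lower and 2 higher with JQ1-VHL, against 19.1% and 2.65% of all genes, and 6 lower and 2 higher with IBET151-VHL, against 36.8% and 5.41%.

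**Figure D3:**
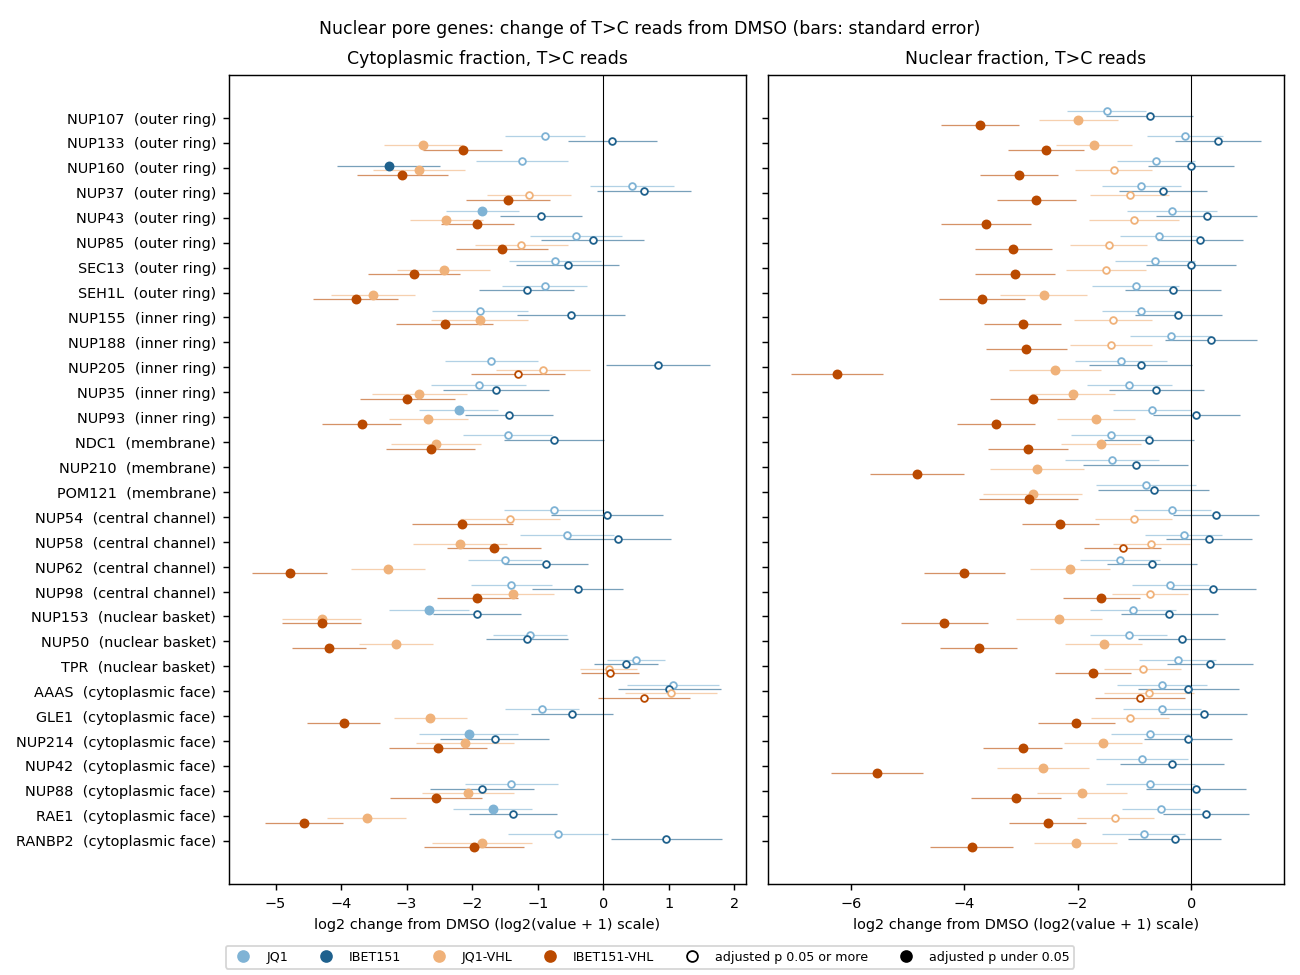
Change in T>C reads of each pore gene against DMSO (log2 of value + 1, horizontal axis, with the SE as a bar), for the 4 compounds in each fraction, with genes listed by place in the pore and filled points where the adjusted p was under 0.05 (limma). With the degraders 19 and 22 of 25 points are filled in the cytoplasm and 16 and 28 of 30 in the nucleus, all below 0, while TPR and AAAS stay near or above 0 in the cytoplasm.

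The T>C level of NUP153 in the cytoplasm was 14.5, 22.8 and 19.7 in DMSO, from 83 reads in all, 4.26, 3.17 and 0.374 with JQ1, and 4.76 and 3.64 with IBET151. All 6 degrader libraries were at 0, which puts it at least 24.6-fold lower with JQ1-VHL and at least 26.7-fold lower with IBET151-VHL, taking 3 reads over the group as the floor. The JQ1 change was -2.66 ± 0.61, given as a description because NUP153 passed the filter through DMSO alone. The count of 5 with JQ1 became 1 without DMSO replicate 1 and to 2 without DMSO replicate 2 or JQ1 replicate 3. NUP160, the gene called with IBET151, stood at 12.1, 28.7 and 5.17 in DMSO and at 0 and 0.911 with IBET151. It too passed through DMSO alone, edgeR did not call it (adjusted p = 0.0527), and the call was lost without DMSO replicate 2 or IBET151 replicate 1 (limma, adjusted p = 0.0633 and 0.133). NUP62 stood at 91.8, 86.1 and 35.7 in DMSO, at 3.35, 10.9 and 5.20 with JQ1-VHL and at 0, 1.73 and 4.18 with IBET151-VHL. Its changes were -3.28 and -4.79 (adjusted p = 1.59e-05 and 3.3e-08, limma). NUP50 stood at 84.5, 115 and 44.5 in DMSO, at 2.01, 17.2 and 10.4 with JQ1-VHL and at 4.04, 4.32 and 1.79 with IBET151-VHL. The RAE1 level went from 60.4, 45.6 and 25.9 in DMSO to 0.670, 3.62 and 4.46 with JQ1-VHL and to 0, 2.59 and 0.597 with IBET151-VHL. For these genes no degrader library reached the lowest DMSO library.

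TPR and AAAS, which encode the basket scaffold and the cytoplasmic face protein ALADIN, did not pass with either degrader, and neither did the inner ring gene NUP205 (-0.92 and -1.30). The TPR T>C level was 12.9, 33.8 and 22.2 in DMSO, 31.5, 17.2 and 21.5 with JQ1-VHL, and 20.2, 20.7 and 29.2 with IBET151-VHL. AAAS stood at 0, 13.5 and 7.24 in DMSO, at 4.69, 9.97 and 15.6 with JQ1-VHL, and at 4.71, 12.1 and 4.77 with IBET151-VHL. The groups overlapped for both genes. How many of their T>C reads came from sequencing error or other sources was not measured. The changes were 0.08 and 0.10 for TPR, and 1.04 and 0.62 for AAAS, in JQ1-VHL and IBET151-VHL. Under median-ratio scaling these 2 genes were the ones called higher, TPR by 2.17 and 2.95 and AAAS by 2.60 and 2.88. NUP54, NUP37 and NUP85 also did not pass with JQ1-VHL.

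The share of a gene's own reads that are T>C reads does not depend on the spike-in scaling. Pooled over the pore genes, this share in the cytoplasm was 0.761 ± 0.0736% in DMSO (SD, n = 3), 0.415 ± 0.0358% with JQ1 (n = 3), 0.472 ± 0.0872% with IBET151 (n = 2), 0.166 ± 0.0142% with JQ1-VHL (n = 3) and 0.120 ± 0.0216% with IBET151-VHL (n = 3). For whole libraries it was 0.782%, 0.544%, 0.616%, 0.288% and 0.249%. The pooled pore share in DMSO was thus near that of the library, and lower than it in every drug group. Per gene the picture differed: the median share of the pore genes was 0.812% in DMSO and 0.0917% and 0.0785% with the degraders, and that of all genes with enough reads 0.684%, 0.0651% and 0.0209%. In the nucleus the pooled share was 7.75 ± 4.36% in DMSO (n = 3), 6.66 ± 3.81% with JQ1 (n = 3), 6.83 ± 3.02% with IBET151 (n = 2), 3.36 ± 0.603% with JQ1-VHL (n = 3) and 1.76 ± 0.597% with IBET151-VHL (n = 3). Whole nuclear libraries gave 5.54%, 4.77%, 4.61%, 2.23% and 1.38%. DMSO replicate 3, at 2.83%, lay below all 3 JQ1-VHL libraries (2.87% to 4.03%), so only the IBET151-VHL libraries were wholly below DMSO.

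Gene by gene in the DMSO cytoplasm, NUP153 had the highest T>C share of the pore genes, 3.90%, 3.33% and 4.56% in the 3 libraries, with a mean above that of 91.3% of genes. With JQ1 it was 0.928%, 1.20% and 0.130%, with IBET151 1.79% and 1.38%, and with the degraders 0 of 633 reads (JQ1-VHL) and 0 of 739 reads (IBET151-VHL), which allow shares of up to 0.474% and 0.406%, for counting error only. NUP160, NUP155, NUP54 and NUP62 followed in DMSO, with means of 2.96%, 2.85%, 2.40% and 2.11%, and NUP85 was lowest at 0.104%. The NUP62 share was 2.73%, 2.21% and 1.40% in DMSO and at most 0.441% in a degrader library. The NUP50 share was 1.81%, 2.01% and 1.40% in DMSO and at most 0.423% in one. For NUP98, which docks RAE1 and whose transcript also encodes NUP96, the share was 2.08%, 1.71% and 1.60% in DMSO, and replicate 1 of JQ1-VHL stayed at 1.56%, near the lowest DMSO library. The other 5 degrader libraries held 0.145% to 0.763%. TPR did not separate at all, with 0.326%, 0.796% and 1.23% in DMSO and 0.414%, 0.770% and 1.53% with IBET151-VHL.

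**Figure D4:**
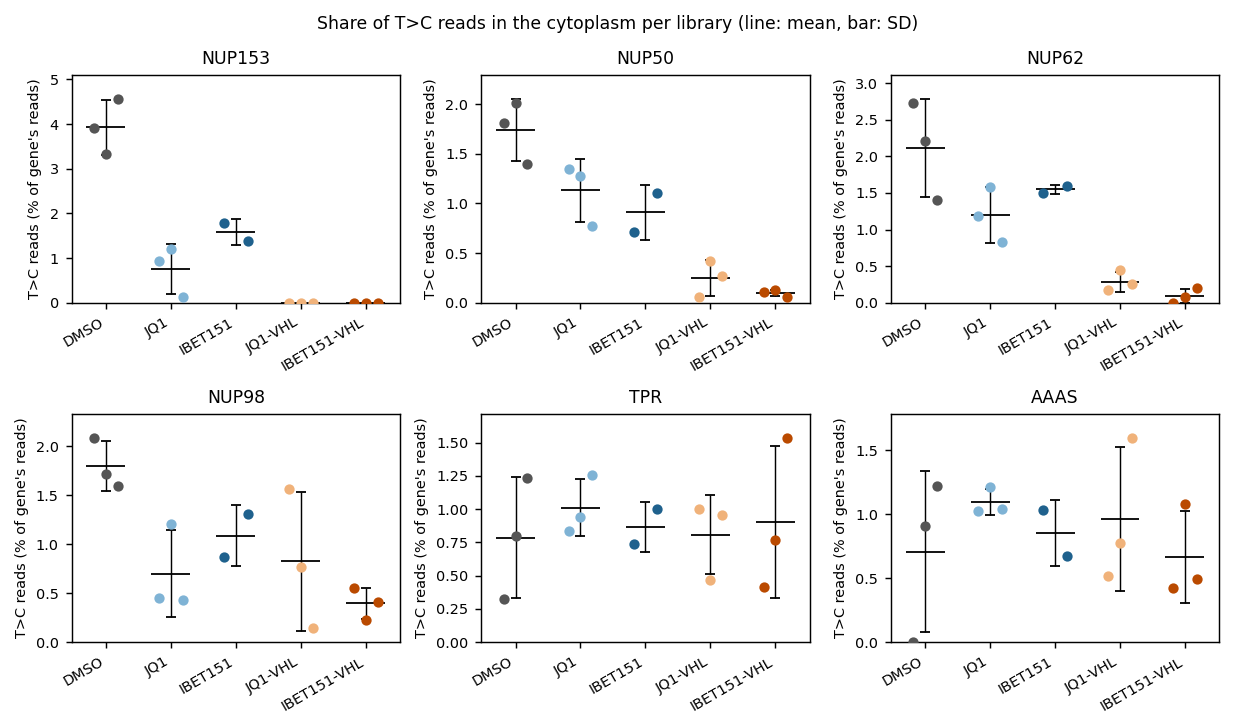
T>C share (percent of each gene's cytoplasmic reads, vertical axis) of NUP153, NUP50, NUP62, NUP98, TPR and AAAS, 1 point per library under each treatment, with a line at the mean and a bar for the SD. The NUP153 points are at 0 in all 6 degrader libraries, against 3.33% to 4.56% in DMSO, and the TPR and AAAS points of DMSO and degrader libraries overlap.

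In the cytoplasm every JQ1-VHL library lay below every DMSO library in share for 21 of the 30 pore genes, against 48.8% of the 11515 genes compared, and every IBET151-VHL library for 19, against 54.1%. JQ1 gave 7 such genes and IBET151 8, against 26.6% and 24.8%. AAAS, NUP42, NUP188, NUP205, NUP210, POM121, RANBP2 and TPR were not wholly below DMSO with either degrader. A gene with few reads often has a share of 0 in some DMSO library, which prevents separation, and the part of this in the counts was not tested. In the nucleus the counts were 0, 0, 10 and 20 for JQ1, IBET151, JQ1-VHL and IBET151-VHL, against 3.69%, 6.91%, 40.4% and 63.8% of 12574 genes. Nuclear TPR shares were 6.94%, 7.20% and 3.67% in DMSO, 3.49%, 3.90% and 3.75% with JQ1-VHL and 2.72%, 2.33% and 1.56% with IBET151-VHL, so that only IBET151-VHL lay wholly below DMSO. The nuclear share was highest in DMSO for NUP54 (21.99%), NUP42 (19.6%) and NUP37 (18.0%) and lowest for NUP210 (1.77%).

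In nuclear T>C reads all 30 pore genes were tested. IBET151-VHL lowered 28 and JQ1-VHL 16, against 83.9% and 60.5% of 12059 genes. The inhibitors lowered none, against 2.29% (JQ1) and 0.987% (IBET151) of genes. With JQ1, 2 pore genes had an unadjusted p under 0.05 and with IBET151 none, and edgeR and DESeq2 called 0 with both. The replicate block also gave 0 with JQ1, against 4.07% of all genes, while blocks for the ranges of library numbers gave some calls (counted at the end). By replicate number, the pooled nuclear share was 11.1%, 9.26% and 2.83% in DMSO and 9.57%, 8.07% and 2.34% with JQ1, lower each time. The largest changes with IBET151-VHL were those of NUP205, a large scaffold protein of the inner ring, at -6.24 (limma, adjusted p = 1.16e-12), NUP42, which binds GLE1, at -5.54 (2.3e-10) and NUP210, a glycoprotein of the pore membrane, at -4.83 (4.43e-08). NUP205 stood at 186, 230 and 53.6 in DMSO and at 0, 0 and 4.48 with IBET151-VHL. NUP42 stood at 107, 212 and 57.5 in DMSO and at 3.88, 1.73 and 0 with IBET151-VHL. Both genes had IBET151-VHL libraries at 0, so the size and order of these changes depend on the pseudocount of 1. NUP153 stood at 90.0, 235 and 155 in DMSO, at 10.7, 56.8 and 37.8 with JQ1-VHL and at 3.88, 13.8 and 4.48 with IBET151-VHL. For all 3 genes the IBET151-VHL libraries lay far below the lowest DMSO library. AAAS (-0.91) and NUP58 (-1.21) did not pass. Under median-ratio scaling, which took the median of all genes from -3.12 to -0.54 with IBET151-VHL and from -1.92 to -0.29 with JQ1-VHL, the counts became 7 lower and 6 higher with IBET151-VHL, against 27.6% and 13.9% of all genes, and 0 lower and 4 higher with JQ1-VHL, against 8.31% and 6.04%. The JQ1-VHL count was 8 without DMSO replicate 1, 2 without DMSO replicate 2 or JQ1-VHL replicate 1, and 1 (against 20.9% of all genes) without replicate 1 of DMSO, JQ1, JQ1-VHL and IBET151-VHL.

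Across the 30 pore genes, the T>C share in DMSO was set against the change in all nuclear reads. Pearson's r and Spearman's rho were -0.62 and -0.62 with IBET151-VHL, and -0.39 and -0.52 with JQ1-VHL. The inhibitors gave -0.35 and -0.55 (IBET151) and -0.23 and -0.36 (JQ1), so the relation was not limited to the degraders. The same correlation over all genes is not given here. These are correlations across genes, which share their libraries and the DMSO values and are not independent, so no p is given. In the cytoplasm r was -0.41 and rho -0.10 with IBET151-VHL, and without NUP153 r was -0.11.

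The untreated distribution over the fractions was compared within DMSO. Of the 32 pore genes 18 were higher in the nucleus than in the cytoplasm and 0 were lower, against 47.9% and 0.539% of the 14458 genes. The median difference was 1.55 for the pore genes and 1.26 for all genes, per mass of RNA in each fraction. All 3 membrane genes were higher in the nucleus, as were 3 of 5 inner ring, 4 of 8 outer ring, 2 of 4 central channel, 2 of 3 basket and 3 of 7 cytoplasmic face genes, and NUP210L. NUP210 stood out, with 4307, 6508 and 9527 in the nucleus and 216, 176 and 207 in the cytoplasm, 32.2-fold higher (5.01 ± 0.50, limma adjusted p = 7.5e-11). NUP210L, a paralog of NUP210, came next at 4.41 (21.2-fold), from lower levels. NUP155 (2.82), NUP205 (2.64) and NUP160 (2.56), which are scaffold proteins, and RANBP2 (2.48), the main protein of the cytoplasmic filaments, followed. At the other end SEC13 (-0.04), which also serves in the COPII coat, SEH1L (0.18), RAE1 (0.21), NUP43 (0.26) and GLE1 (0.27) did not differ beyond their error. Under median-ratio scaling, which took the median of all genes from 1.26 to 0.17, 14 were higher and 8 lower, against 28.8% and 26.1% of all genes. The count of genes higher in the nucleus ran from 13 to 20 when 1 library was left out, and it was 29 (against 69.8% of all genes) without replicate 1 of both fractions.

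**Figure D5:**
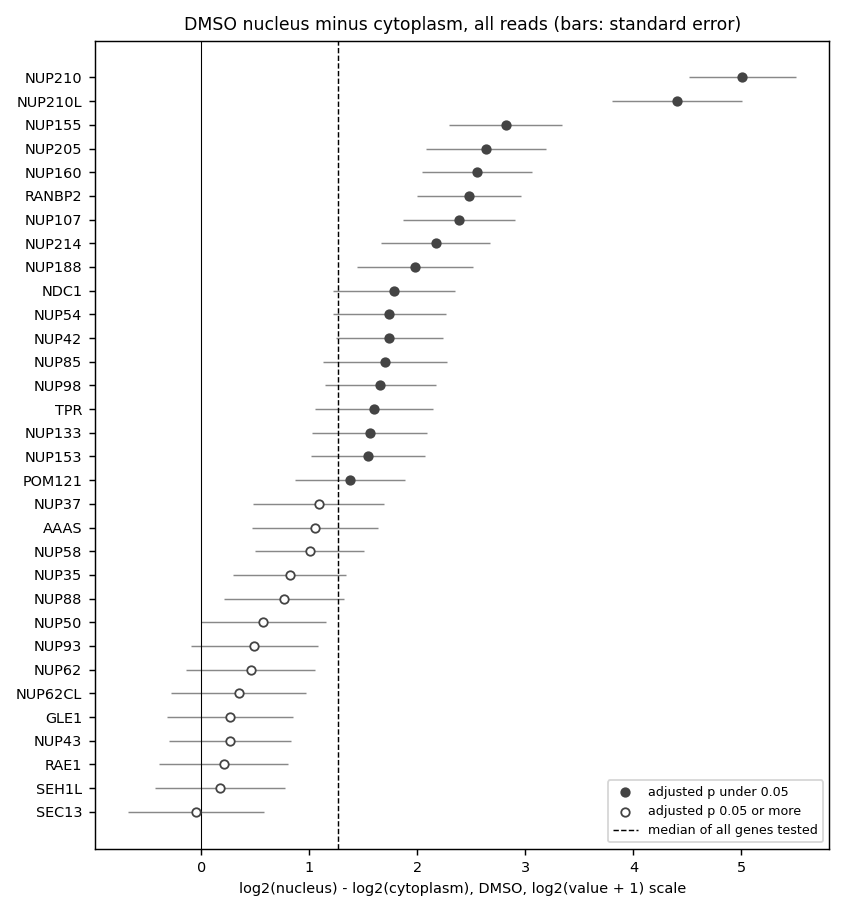
Nuclear minus cytoplasmic level of each pore gene in DMSO (log2 of value + 1, horizontal axis, with the SE as a bar), in order of size, with a dashed line at the median of all genes. NUP210 lies at 5.01, far from the other pore genes with a known place, and SEC13 at -0.04.

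The genes that work with the pore were described in the same way. Of 34 transport receptors and genes of the Ran cycle, 2 fell in the cytoplasm with each degrader (against 12.5% of all genes with JQ1-VHL and 15.4% with IBET151-VHL) and none with either inhibitor (4% with JQ1 and 1.62% with IBET151), in all reads. They were NXT1, the partner of the mRNA export receptor NXF1, by 0.91 and 1.53 (limma, adjusted p = 0.013 and 0.000207), and KPNA5, an importin alpha, by 1.06 and 1.35. The importin IPO4 gave 1.87 and 1.62 and did not pass. In cytoplasmic T>C reads 26 of the 28 tested fell with JQ1-VHL, 27 with IBET151-VHL, 8 with JQ1 and 3 with IBET151, against 82.8%, 88.3%, 20.1% and 6.76% of all genes tested. Of 23 genes of the nuclear envelope and of pore assembly, 1 fell in the cytoplasm, SENP1, a SUMO protease, by 0.95 with JQ1 (adjusted p = 0.0392, limma, against 4% of all genes), and none with the degraders (12.5% and 15.4%). SENP2 and AHCTF1, which seeds pores on chromatin, gave -0.33 and -0.54 with JQ1-VHL and did not pass. In cytoplasmic T>C reads 14 of 17 fell with JQ1-VHL and 15 with IBET151-VHL (82.8% and 88.3% of all genes). In neither list were genes tested through their DMSO libraries alone set apart. The T>C counts of both lists are therefore a description and no support. In DMSO 13 of the 34 and 11 of the 23 were higher in the nucleus, against 47.9% of all genes.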

How the data were processed

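Both tables hold signal values that the authors deposited: reads per gene, or T>C reads per gene, of 3′ end libraries, scaled to ERCC RNA, per the labels' protocols and the file headers. Per the submitters' processing notes, bcl2fastq, Trimmomatic 0.39, HISAT2, HTSeq and DESeq2 were used, and GRCh37, hg19 and dm3 are the builds named. The calling of T>C reads is not given in the sources used here. All values were whole multiples of what 1 read is worth in a library (100% within 0.001), which gave the read counts and the depth.

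Each fraction's 14 libraries were fitted together with limma 3.58.1 (R 4.3.3) on log2(value + 1), keeping genes that reached a value of 10 in all reads, or 5 in the T>C table, in 2 or more libraries, with Benjamini-Hochberg adjustment over all genes of a comparison and a threshold of 0.05. All 28 libraries entered the comparison of fractions. The script was tested on simulated data. At 1.5-fold it recovered 8 of 67 changed genes in cytoplasmic reads, 7 of 67 in nuclear reads and 3 of 67 in cytoplasmic T>C reads. At 2-fold it recovered 41, 46 and 36 of 67, and at 4-fold all 66 in each. The simulated spread was set in advance and not taken from these libraries. Genes that did not pass may therefore have changed. T>C shares are T>C reads over all reads of a gene. Shares of all genes used those with a mean level of at least 10.

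The pore genes, the gene lists and the roles were chosen with earlier results of these data known, and NUP153 was already known to fall with the degraders. Values in every library are given for genes called with both degraders in the cytoplasm. In other comparisons they are given for the called genes, or for the 3 with the smallest p where more than 6 or none were called. TPR, AAAS, NUP50, NUP98 and the comparison examples were chosen after their values were seen.

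The replicate numbers come from the sample titles. In all reads, same-numbered libraries of DMSO and of JQ1, JQ1-VHL and IBET151-VHL deviated together in every pair (lowest correlation 0.264, 0.203 and 0.359 in the cytoplasm, and 0.315, 0.220 and 0.282 in the nucleus), and DMSO libraries did so between fractions (0.105). Pairs with IBET151 did not, and the replicate block included the IBET151 libraries in both fractions.

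Alternatives were other pseudocounts (0.5 and 5), no filter, 5 times the minimum, median-ratio scaling, only the groups compared, the replicate block, a block for each of 4 ranges of the library numbers in the titles, edgeR 4.0.16, DESeq2 1.42.0 and leaving out each library. The ranges (927 to 937, 939 to 949, 953 to 961 and 963 to 973) were drawn here, numbers also skip inside a range, and the labels name no batch. Median-ratio scaling with the replicate block, and leaving out the first range (replicate 1 of DMSO, JQ1, JQ1-VHL and IBET151-VHL), were added after seeing the data.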

Additional observations from a re-analysis of the deposited data

How the results depend on the processing

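Counts are of pore genes called in either direction, against DMSO unless another pair is named. Where no share of all genes stands beside a count, here or above, the count only describes the setting. Leaving out 1 library gave, in cytoplasmic reads, 0 to 4 (JQ1), 1 to 5 (JQ1-VHL), 2 to 7 (IBET151-VHL) and 0 to 1 (JQ1-VHL minus JQ1). In cytoplasmic T>C reads it gave 1 to 6, 15 to 19, 0 to 1 (IBET151) and 18 to 22, in nuclear T>C reads 2 to 22 (JQ1-VHL) and 25 to 29 (IBET151-VHL), and between DMSO fractions 13 to 20. Other counts stayed at 0. Where an arm was left with 1 library, it was assumed to vary like the other groups.

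With the replicate block, 3 pore genes were called for JQ1 in cytoplasmic reads, where 6.38% of all genes fell. In nuclear reads 5 (JQ1), 5 (JQ1-VHL) and 16 (IBET151-VHL) were called, where 9.54%, 23.4% and 43.7% of all genes fell. For IBET151-VHL minus IBET151, 25 fell in nuclear reads, where 64.8% of all genes did. For IBET151 minus JQ1, 9 rose there, where 3452 of all 14417 genes did. In these last 2 pairs the replicate numbers do not pair. The block moved no other count by over 1.5 times. With the 4 ranges of library numbers as blocks, cytoplasmic reads gave 4 (JQ1), 7 (JQ1-VHL), 3 (IBET151), 9 (IBET151-VHL), 2 (JQ1-VHL minus JQ1) and 3 (IBET151-VHL minus IBET151). Nuclear reads gave 13, 14, 10, 24 and 4 (IBET151-VHL minus IBET151), and nuclear T>C reads 3 (JQ1), 28 (JQ1-VHL) and 1 (IBET151). The share of all genes called with these blocks is not given here, so these counts are no result about the pore genes. Without replicate 1 of DMSO, JQ1, JQ1-VHL and IBET151-VHL, cytoplasmic reads gave 0 (JQ1), 1 (JQ1-VHL), 2 (IBET151-VHL) and 0 (JQ1-VHL minus JQ1), nuclear reads 8 (IBET151-VHL) and 3 (IBET151-VHL minus IBET151), cytoplasmic T>C reads 2 (JQ1) and 0 (IBET151), nuclear T>C reads 1 (JQ1-VHL), and the DMSO fractions 29.

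Median-ratio scaling gave 2 (IBET151) in cytoplasmic reads, 1 (JQ1-VHL), 1 (IBET151) and 4 (IBET151-VHL) in nuclear reads, 0, 5, 0 and 8 for JQ1, JQ1-VHL, IBET151 and IBET151-VHL in cytoplasmic T>C reads, 4 (JQ1-VHL) and 13 (IBET151-VHL) in nuclear T>C reads, and 1, NUP153, for the JQ1-VHL fraction effect. Combined with the replicate block it gave 4 (JQ1), 4 (IBET151) and 2 (JQ1-VHL minus JQ1) in cytoplasmic reads, 1, 3, 3, 10 and 2 (IBET151-VHL minus IBET151) in nuclear reads, 0, 5, 0 and 8 in cytoplasmic T>C reads, 5 and 13 in nuclear ones, and 1 for the fraction effect. Under it NUP62 (-0.68) and RAE1 (-0.93) reversed between the DMSO fractions, NUP210 with IBET151-VHL in nuclear reads (0.61, and 0.65 against IBET151), TPR with JQ1-VHL in nuclear T>C reads (0.91), and AAAS (2.01), NUP35 (0.155), RAE1 (0.46) and TPR (1.27) with IBET151-VHL there. The cause of these changes was not tested.

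Other settings moved fewer counts. With only the groups compared, cytoplasmic reads gave 0 (JQ1), 1 (JQ1-VHL), 2 (IBET151-VHL) and 1 (IBET151-VHL minus IBET151), and nuclear T>C reads 8 (JQ1-VHL). At 5 times the minimum, fewer genes were tested and cytoplasmic T>C reads gave 1, 3, 0 and 4. For JQ1 they gave 3 without a filter, 3 with a pseudocount of 0.5 and 10 with one of 5, which gave 4 for IBET151, where edgeR and DESeq2 gave 0. No filter gave 0 for JQ1-VHL minus JQ1 in cytoplasmic reads, and DESeq2 gave 2 (JQ1) and 1 (IBET151-VHL minus IBET151). A cytoplasmic library held as few as 83 T>C reads of pore genes, which limits the precision of the T>C values.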
